A study of Oncorhynchus mykiss with 24 samples.

Results

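Among 4368 features printed on a trout cDNA array, 51, or 1.17%, were shifted one way in liver after 3 diets containing indoles while their mean stayed small after estradiol. Each feature is a pair of adjacent spots and is named here by the number of its first spot. The members were chosen by their measured log2 ratios to a vehicle pool: a mean of at least 0.5 in size and of one sign in 1500 ppm I3C, 500 ppm DIM and 1500 ppm DIM, and a mean under 0.35 in size in E2. Those 4 diets are therefore described without a test. The diets with 500 ppm I3C and with BNF took no part in the choice and are tested below.

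All fish were juvenile rainbow trout of the Mt. Shasta strain, aged 12 to 18 months, fed a casein-based test diet for 12 days and sampled on day 13. The treated diets held I3C at 500 or 1500 ppm, DIM at 500 or 1500 ppm, BNF at 500 ppm, or E2 at 5 ppm. The control diet held 0.15% dimethyl sulfoxide, and RNA from the livers of 12 control fish was mixed into 1 pool. Each diet had 2 tanks of 6 fish, and 2 treated RNA samples per diet were each hybridised against that pool on a pair of arrays with the dyes exchanged, 24 arrays in all. The labels do not tie a sample to a fish or tank, so the spread between samples may be technical.

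I3C (indole-3-carbinol) is a breakdown product of glucosinolates from cabbage-family plants. In stomach acid it condenses to several products, of which DIM (diindolylmethane) is one. BNF (beta-naphthoflavone) is a synthetic agonist of the aryl hydrocarbon receptor, the transcription factor that induces cytochrome P450 1A genes, and some indole products also bind this receptor. E2 is estradiol, which acts through estrogen receptors and in fish liver induces egg-yolk and egg-envelope proteins. The liver also makes most plasma proteins and protease inhibitors. Measurements on whole liver cannot tell fewer cells of one type from less RNA per cell.

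The 51 members comprised 18 higher and 33 lower features. Directions are likely rather than settled, because the deposited ratios do not state their numerator and were read from the dye labels. The log base is also unstated and was taken as 2. All 4 arrays of the first E2 sample and the first 500 ppm DIM sample ran opposite to arrays of the same dye orientation, with median correlations of -0.54 and -0.70 for DIM and -0.58 and -0.62 for E2 over all features. Their signs were turned here. Without the first E2 sample the rule found 65 features, 38 of them among the 51, and without the first 500 ppm DIM sample it found 46, 45 of them among the 51. With signs as deposited the same rule found 6 features, 0 of them among the 51. Without median-centring of the arrays it found 25 features, 23 higher and 2 lower, 9 of them among the 51.

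A gene symbol was available for 3 members, which represent 2 genes, and 48 members were unnamed here. On the whole array 49 features had a symbol. The named ones, all lower, were 2 features for ambp and 1 for antiprot1. ambp encodes a liver-made precursor that is cleaved into alpha-1-microglobulin, a heme-binding plasma protein, and bikunin, a protease inhibitor. antiprot1 carries the symbol of an antiproteinase. These 3 were also the only named features from a list of liver plasma proteins and protease inhibitors, so no other named feature of that group can be set beside them.

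The plot of all 51 members by sample gives the pattern in full. In the higher members the median log2 ratio was 0.66 in 1500 ppm I3C, 0.78 in 500 ppm DIM and 0.98 in 1500 ppm DIM, and the median was 0.19 in E2. In the lower members the medians were -0.68, -0.83 and -0.73 in those same indole diets, and -0.23 in E2. The corresponding medians over all 4368 features were 0.037, 0.066 and 0.013 in the indole diets and 0.030 in E2. These medians restate the choice of members.

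**Figure D1:**
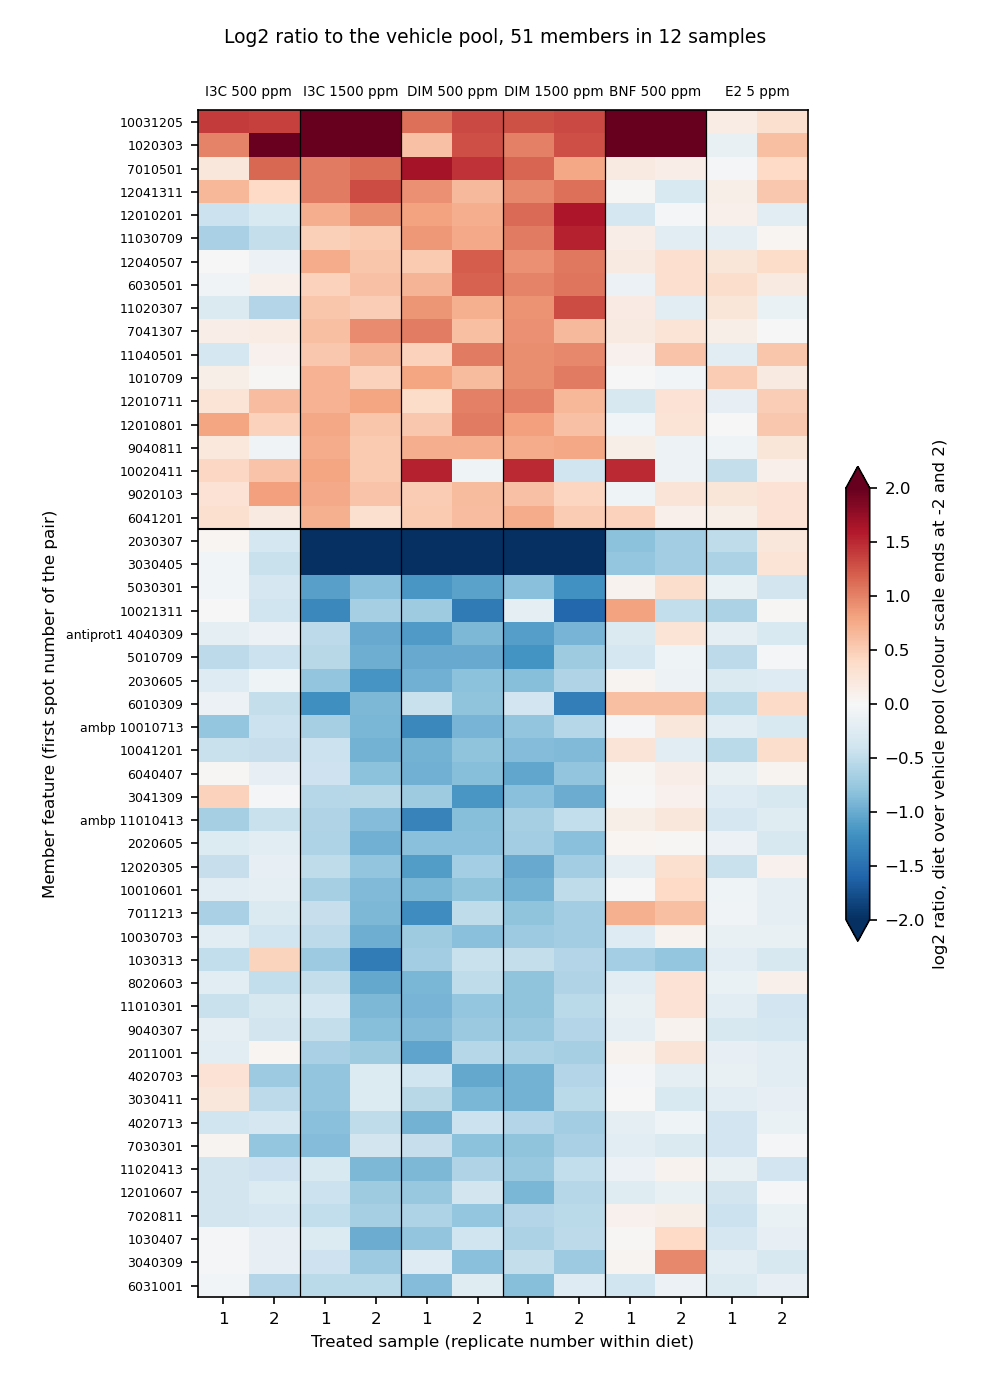
Log2 ratio to the vehicle pool of each of the 51 members (rows, higher members above the line) in each of the 12 treated samples (columns, 2 per diet). The colour scale ends at -2 and 2. The 18 higher members are red and the 33 lower members blue in nearly all samples of 1500 ppm I3C and of both DIM diets. Colours are mostly paler in the BNF and E2 columns, apart from the first 2 rows and the first sample of feature 10020411 in BNF. In E2, 25 of the 33 lower members are below 0 in both samples.

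The members that stood furthest from 0 were 4 features. Features 10031205 and 1020303 led the higher members, and features 2030307 and 3030405 led the lower ones. In the lower group the next largest was feature 5030301, with -0.96 in 1500 ppm I3C, -1.12 in 500 ppm DIM and -1.03 in 1500 ppm DIM. The change at 1500 ppm DIM was larger than at 500 ppm DIM in 22 of 51 members, both doses being part of the choice. The 500 ppm I3C values were not part of it, so that the counts of members larger at 1500 ppm than at 500 ppm I3C (50 of 51) and larger in DIM than in I3C at 500 ppm (49 of 51) were largely set by the choice. At 1500 ppm, where both compounds had to pass, DIM was larger in 28 of 51.

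**Figure D2:**
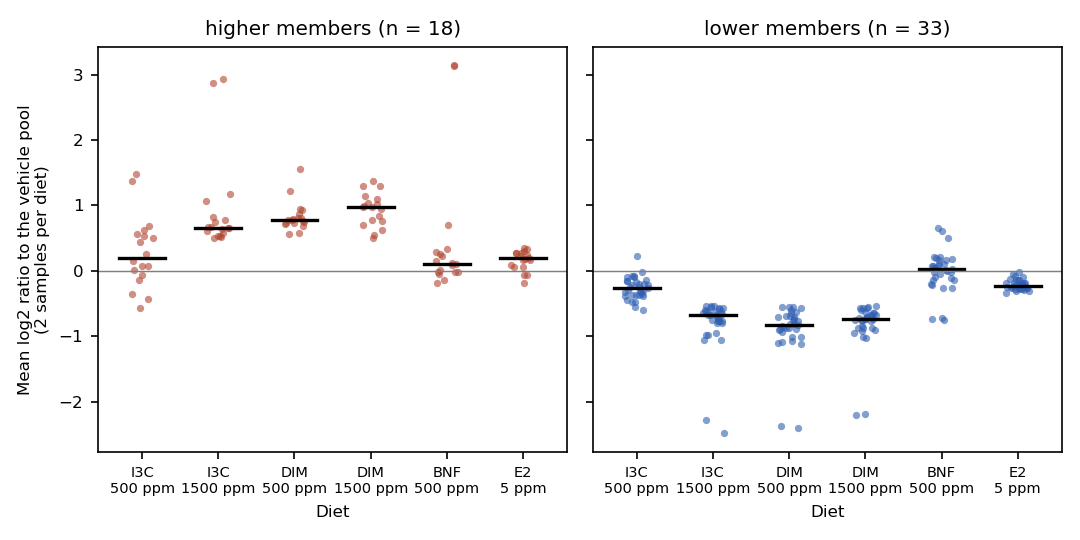
Mean log2 ratio to the vehicle pool (2 samples per diet) of each higher member (left, n = 18) and each lower member (right, n = 33) in the 6 diets, with the median as a bar. The medians in 500 ppm I3C are 0.20 and -0.27, and those in BNF are 0.11 and 0.026. In E2 all 33 lower members lie below 0.

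Features 10031205 and 1020303 were the members that responded most to BNF. The log2 ratio of feature 10031205 was 1.40 and 1.36 in the 2 samples of 500 ppm I3C and 2.62 and 3.23 in those of 1500 ppm I3C. The DIM samples held 1.10 and 1.33 at 500 ppm and 1.28 and 1.32 at 1500 ppm. The BNF samples held 2.84 and 3.44, and the E2 samples 0.16 and 0.32. Thus BNF and 1500 ppm I3C lay highest without overlap with the other diets, 500 ppm I3C and both DIM diets lay between, and E2 was lowest. That the E2 mean lay below those of the choosing indole diets was set by the choice.

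Feature 1020303 followed the same order of diets by its means. It had 0.99 and 1.98 in 500 ppm I3C and 2.93 and 2.82 in 1500 ppm I3C. It had 0.59 and 1.29 in 500 ppm DIM and 1.0 and 1.28 in 1500 ppm DIM. The BNF samples held 2.74 and 3.51, and the E2 samples -0.16 and 0.60. The lowest DIM sample, at 0.59, overlapped the higher E2 sample. Neither feature has a gene symbol here. The named cyp1a3 feature, a cytochrome P450 1A gene, was no member. It was the sole named one from a list of 11 genes or families, which held the aryl hydrocarbon receptor itself and receptor-responsive genes. Its mean log2 ratio was 0.17 in 500 ppm I3C (SE 0.17, n = 2) and 0.098 in BNF (SE 0.17, n = 2), and it was called in neither. The 500 ppm I3C samples of cyp1a3 were at -0.19 and 0.53. The part of its log2 ratio that did not turn with the dyes averaged -0.83, against a median size of 0.40 over all features. Whether this hid a response was not tested.

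Across all features limma called 2 in BNF against the pool at an adjusted p under 0.05, 0.0458% of 4368, both higher, and 0% were called lower. Both were members, features 10031205 and 1020303. The mean of feature 10031205 was 3.14 (SE 0.17, n = 2, limma adjusted p = 1.31e-07). That of feature 1020303 was 3.12 (SE 0.25, n = 2, limma adjusted p = 9.87e-06). These p-values rest on the spread over all 12 samples. With only the BNF samples fitted, limma adjusted p was 0.0105 for 10031205 and 0.0113 for 1020303. With signs as deposited it was 0.0448 and 0.0364. None of the other 49 members was called in BNF, and 8 of 51 had an unadjusted p under 0.05, against 299 of all features. Without median-centring 5 members were called in BNF, 2 higher and 3 lower, among 41 of all features, 2 higher and 39 lower. The first BNF sample was the least even of the series. Its duplicate spots correlated at 0.41 and 0.57 on its 2 arrays, and the next lowest array was at 0.81. The 2 BNF samples correlated at 0.16 over all features, against 0.37 to 0.85 in the other diets. Without the Cy5 array of the first BNF sample, 10 features were called in BNF, 4 higher and 6 lower, 2 of them members.

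In 500 ppm I3C the same pair of features rose. Feature 10031205 had a mean of 1.38 (SE 0.17, n = 2, limma adjusted p = 0.00100), and feature 1020303 had 1.48 (SE 0.25, n = 2, limma adjusted p = 0.0152). The call of feature 1020303 was lost without the second 500 ppm I3C sample (limma adjusted p = 0.321), and 4 members were called without the first, among 152 of all features. Both calls were lost with arrays scaled alike (limma adjusted p = 0.439 for 10031205 and 0.559 for 1020303), where 1 of all features was called. They were also lost with signs as deposited (limma adjusted p = 0.859 for each). There 0 of all features were called, and the means of both features were unchanged. The 2 called members stood against 33 of all 4368 features called in 500 ppm I3C, or 0.755%, of which 0.412% were higher and 0.343% lower. No lower member was called, and 19 of 51 members had an unadjusted p under 0.05, against 608 of all features. The direction split depended on centring: without it 28 members were called, 2 higher and 26 lower, but so were 818 of all 4368 features, 9 higher and 809 lower. The 26 included features 12010201, 11030709 and 11020307 of the higher group. That setting also moved the median of all features to -0.44 in 500 ppm I3C and to -0.34 in BNF.

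By size alone, 32 of 33 lower members were below 0 in 500 ppm I3C, with a median of -0.27 and a range of -0.61 to 0.22. Of the higher members 13 of 18 were above 0, with a median of 0.20 and a range of -0.57 to 1.48. Of all 4368 features 1940 were below 0 and 2428 above, with a median of 0.032. The lower members are not all separate genes, since 2 of them are ambp. Relative to the median of all features in the uncentred data, the medians were 0.17 for higher and -0.30 for lower members. All diets share the vehicle pool, so a deviation of the pool would enter each of these values alike. In BNF the lower members were spread on both sides of 0, 18 above and 15 below, with a median of 0.026, and the higher members had a median of 0.11, against 0.010 for all features.

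**Figure D3:**
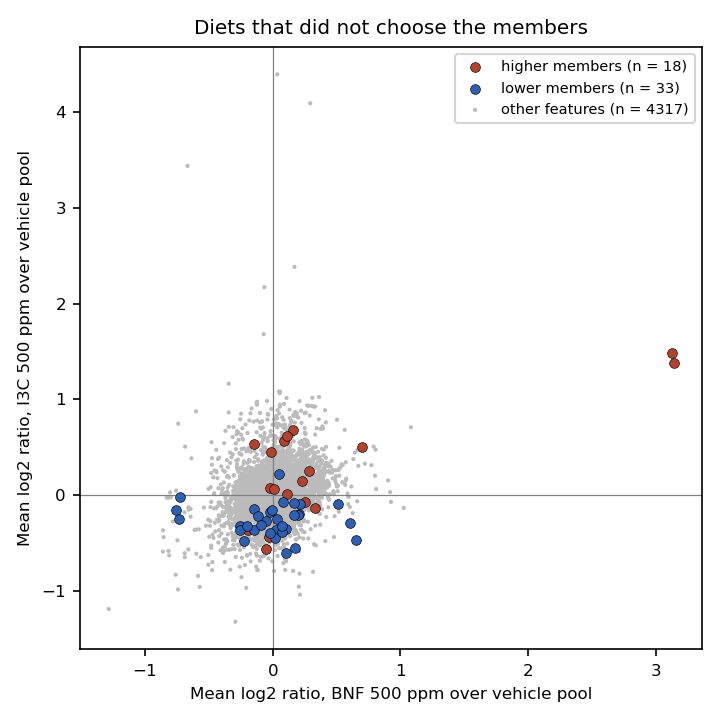
Mean log2 ratio to the vehicle pool in BNF (x axis) and 500 ppm I3C (y axis) for all features, with the 18 higher members in red, the 33 lower members in blue and the other 4317 in grey. Features 10031205 and 1020303 stand alone at the right, and most lower members lie below the horizontal line and on both sides of the vertical one.

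The difference of 500 ppm I3C minus BNF contains no pool value, and its estimate uses no sample of the choice. Its intervals and p-values rest on the spread over all 12 samples, including those of the choosing diets. limma called 7 of 4368 features in this difference, 0.16%, with 0.137% higher and 0.0229% lower in I3C. One member was among them, feature 10031205, with 1.38 in I3C against 3.14 in BNF. The difference was -1.76 (95% interval -2.29 to -1.23, n = 2 each, limma adjusted p = 0.00489), and this was the only feature of the array called lower. Without the second BNF sample it was -1.46 (limma adjusted p = 0.0969). Leaving out the second 500 ppm I3C sample (11 of all features called) or either E2 sample (12 called) gave 2 called members. For feature 1020303 the difference was -1.64 (95% interval -2.40 to -0.88, limma adjusted p = 0.110), and it was called when the 24 arrays were fitted with a dye effect (limma adjusted p = 0.00547). That fit treated the 2 arrays of 1 RNA sample as almost independent (consensus correlation 0.0083) and called 24 of all features, against 7. Feature 1020303 was also called with the replicate number added to the fit (limma adjusted p = 0.00984, 8 of all features called). Of the 51 members 10 had an unadjusted p under 0.05, against 256 of all features. The lower members had a median difference of -0.25, 29 of 33 being below 0, and the higher members had -0.089, 11 of 18 being below 0. The median over all features was 0.0010. With only the 500 ppm I3C and BNF samples fitted, 4 features were called in this difference, 0 of them members.

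Features 2030307 and 3030405 had the lowest values. Feature 2030307 was at -2.44 and -2.53 in 1500 ppm I3C, -2.80 and -2.01 in 500 ppm DIM, and -2.29 and -2.13 in 1500 ppm DIM. In 500 ppm I3C it was at 0.04 and -0.35, in BNF at -0.82 and -0.69, and in E2 at -0.51 and 0.22. The 6 samples of the choosing indole diets were all below -2, no other sample was below -0.9, and 500 ppm I3C overlapped E2. The I3C means were -0.15 at 500 ppm and -2.48 at 1500 ppm, of which the second took part in the choice.

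Feature 3030405 ran nearly in parallel. Its means were -0.25 in 500 ppm I3C, -2.28 in 1500 ppm I3C, -2.38 in 500 ppm DIM, -2.18 in 1500 ppm DIM, -0.73 in BNF and -0.18 in E2. The BNF values did not pass the test for either feature (limma adjusted p = 0.369 for 2030307 and 0.462 for 3030405), but both were called lower in BNF without median-centring (limma adjusted p = 0.00331 and 0.00393). In that setting 39 of all features were called lower in BNF and 2 higher, and the median of all features was -0.34. Feature 1030313 was the third lower member below -0.5 in BNF, at -0.68 and -0.77 (limma adjusted p = 0.421, and 0.00417 without median-centring). Its 500 ppm I3C samples lay on either side of 0, at -0.49 and 0.45.

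The ambp features lie in different print blocks and come from the same expressed sequence tag, so they count as 1 gene measured from separate spots. They differed by at most 0.13 in any of the 12 samples. Feature 10010713 had -0.78 and -0.43 in 500 ppm I3C, -0.67 and -0.91 in 1500 ppm I3C, -1.29 and -0.93 in 500 ppm DIM, and -0.78 and -0.56 in 1500 ppm DIM. The BNF samples held -0.02 and 0.23 and the E2 samples -0.21 and -0.30. All 8 indole samples were therefore below all 4 BNF and E2 samples. The choice of members set much of this order, since only 500 ppm I3C and BNF took no part in it.

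For ambp in 500 ppm I3C the means were -0.61 (SE 0.15, n = 2) and -0.55 (SE 0.15, n = 2) for the 2 features, and neither passed the test (limma adjusted p = 0.0955 and 0.114). The BNF means were 0.11 and 0.17. The differences of 500 ppm I3C minus BNF were -0.71 (95% interval -1.18 to -0.25) and -0.73 (95% interval -1.19 to -0.26), with limma adjusted p = 0.375 and 0.344. Without median-centring both ambp features were among the members called lower in 500 ppm I3C (limma adjusted p = 0.00166 and 0.00289). In that setting 809 of all 4368 features were called lower there and 9 higher, and the median of all features was -0.44.

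antiprot1 had values nearer 0 than ambp in 500 ppm I3C, a difference that was not tested. Its samples were at -0.19 and -0.12 in 500 ppm I3C, -0.53 and -1.0 in 1500 ppm I3C, -1.13 and -0.89 in 500 ppm DIM, and -1.10 and -0.93 in 1500 ppm DIM. They were at -0.30 and 0.28 in BNF and at -0.19 and -0.30 in E2. The 500 ppm I3C samples thus lay among those of BNF and E2, and the 3 choosing indole diets lay below. The 500 ppm I3C mean of -0.16 (SE 0.17, n = 2) and the difference from BNF of -0.15 (95% interval -0.65 to 0.36) did not pass the test.

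**Figure D4:**
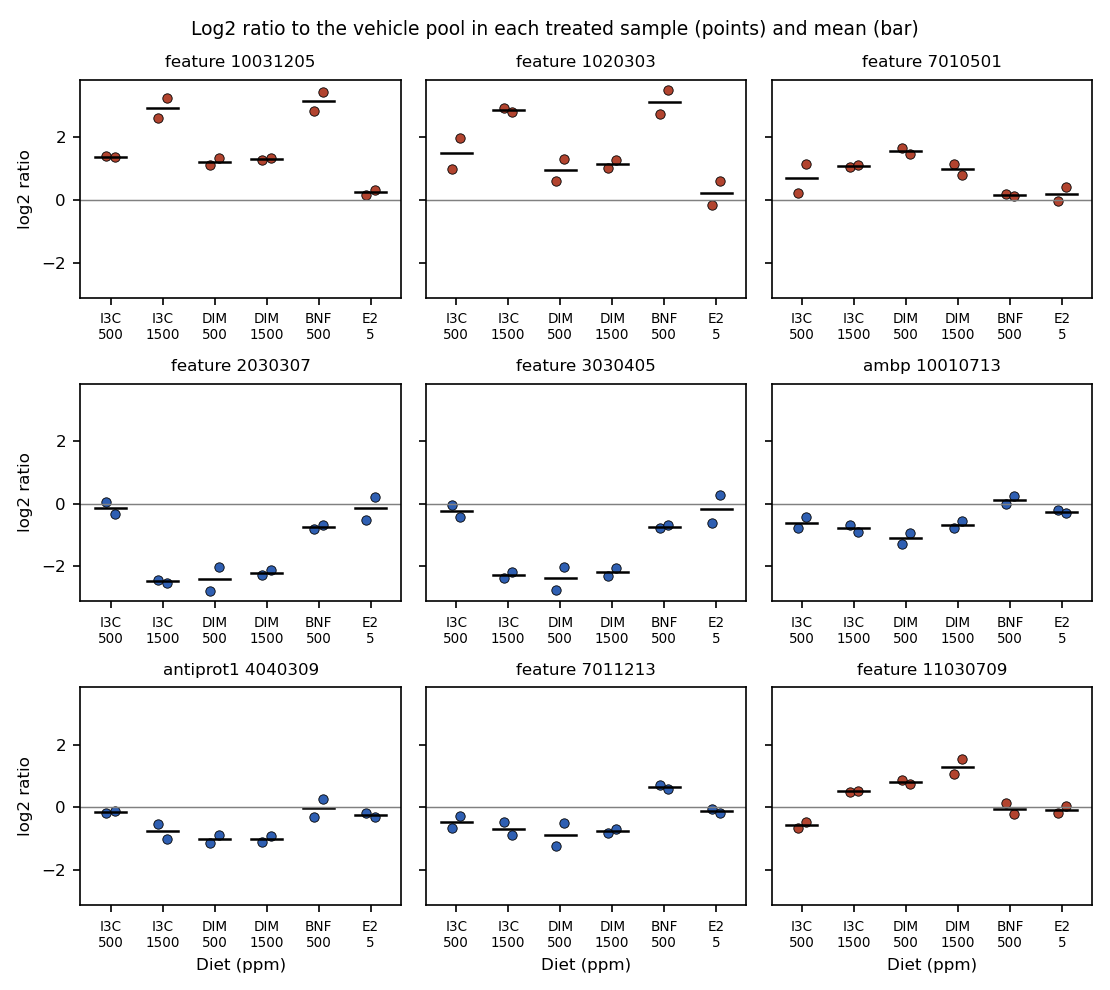
Log2 ratio to the vehicle pool in each treated sample (points) and the mean (bar) of 9 members across the 6 diets, higher members in red and lower members in blue. Features 10031205 and 1020303 are highest in BNF and 1500 ppm I3C. Features 2030307 and 3030405 are below -2 only in 1500 ppm I3C and both DIM diets, and feature 11030709 is below 0 in 500 ppm I3C.

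Features 7010501 and 12041311 were the next largest higher members. Feature 7010501 was at 1.03 and 1.11 in 1500 ppm I3C, 1.66 and 1.45 in 500 ppm DIM and 1.16 and 0.78 in 1500 ppm DIM. Its BNF samples were 0.18 and 0.13, and its 500 ppm I3C samples, 0.22 and 1.14, were far apart. Feature 12041311 had means of 0.53 in 500 ppm I3C, 1.17 in 1500 ppm I3C, 0.78 in 500 ppm DIM and 1.04 in 1500 ppm DIM, and -0.14 in BNF. Its E2 mean of 0.33 was close to the limit of the choice.

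Means of opposite sign at the 2 I3C doses occurred in 5 of 18 higher and 1 of 33 lower members. The 3 higher members furthest below 0 in 500 ppm I3C were features 12010201, 11030709 and 11020307. Feature 12010201 averaged -0.36 in 500 ppm I3C and 0.83 in 1500 ppm I3C. Feature 11030709 averaged -0.57 and 0.50 at those doses, and feature 11020307 averaged -0.43 and 0.52. Both 500 ppm I3C samples were below 0 for all 3 features, though none passed the test there (limma adjusted p = 0.321, 0.114 and 0.242). Their dye component, the part of the log2 ratio that did not turn with the dyes, averaged 0.57, 0.65 and 0.72, against a median size of 0.25 over the members and 0.40 over all features. Feature 12041311, with means above 0 at both I3C doses, had a dye component of 0.65. The part of the dye component in these results was not tested.

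The lower members included 3 that were above 0.5 in BNF. Feature 7011213 was at -0.65 and -0.29 in 500 ppm I3C and at 0.71 and 0.59 in BNF. The difference of I3C minus BNF was -1.12 (95% interval -1.66 to -0.58, limma adjusted p = 0.110). Feature 6010309 had means of -0.63 to -1.06 in the 3 choosing indole diets, against 0.60 and 0.61 in the BNF samples. Feature 3040309 averaged 0.51 in BNF, with 0.05 and 0.96 in the 2 samples.

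In both DIM diets and BNF, single samples carried feature 10020411. Its samples were at 0.42 and 0.58 in 500 ppm I3C and at 0.79 and 0.52 in 1500 ppm I3C. It had 1.54 and -0.08 in 500 ppm DIM, 1.50 and -0.39 in 1500 ppm DIM and 1.50 and -0.10 in BNF, so that only the first sample of each of those diets was high. Among the lower members feature 10021311 had -0.19 and -1.57 in 1500 ppm DIM and 0.81 and -0.48 in BNF. Features 10020411 and 10021311 each had the sign of their group on 10 of the 12 arrays of the 3 choosing indole diets. In 31 of 51 members all 12 arrays had it, and the lowest count was 8 of 12, for feature 12010607.

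A few members had closer means in I3C and DIM at 500 ppm than the rest of their group. Feature 9020103 had 0.56 in I3C and 0.57 in DIM, and feature 12010801 had 0.62 and 0.78. Among the lower members feature 6031001 had -0.32 in I3C and -0.55 in DIM, feature 12010607 had -0.32 and -0.56, and feature 7030301 had -0.36 and -0.65. At 500 ppm these lower members were thus still smaller in I3C than in DIM.

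The E2 values only partly bear out the wording "little by estradiol". All 33 lower members had an E2 mean below 0, between -0.34 and -0.019, and 15 of 18 higher members had one above 0. The 2 E2 samples had opposite signs in 19 of 51 members. E2 and the indole diets share the vehicle pool, so a deviation of the pool would enter both alike. The 95% interval of the E2 mean had a median half-width of 0.35. It lay wholly within 0.5 of 0 for 9 of 51 members, and it held 0 for 49 of 51. These intervals are a description only, because the E2 mean took part in the choice. Of all 330 features that passed the indole thresholds with one sign, 278 had an E2 mean of at least 0.35 in size with the same sign, 103 higher and 175 lower, and 1 had the opposite sign.

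The rule was also applied to one sample of each diet and its features were read in the other sample. The first samples alone gave 29 features. In the second samples all 29 had their sign in the 3 indole diets, and 21 had an E2 value under 0.35 in size. The second samples alone gave 53 features. In the first samples 52 of these kept their sign, but 19 had an E2 value under 0.35 in size and 34 had one of at least 0.35 in the indole direction. The whole rule was met in both samples by 12 features, which is the overlap of the 29 and the 53 and so 1 count. Both samples of each diet were set against the same pool, and the first 500 ppm DIM and first E2 samples had been turned to run with the others, so that some agreement in sign was built in.

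Values at the thresholds were close to one another. Just inside the indole threshold, the smallest indole mean was 0.505 for feature 11030709 and 0.507 for feature 9020103. Just outside, it was 0.498 for feature 4031311 and 0.492 in size for feature 1021201. On the E2 side feature 1010709 at 0.346 and feature 9040307 at -0.337 were inside, and features 10040607 and 10010409, both at -0.351, were outside.

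In the diets outside the choice, the members can be set beside the 278 features that E2 shared. limma called 15 of the 103 shared higher features and 15 of the 175 shared lower ones in 500 ppm I3C, each in its own direction, against 2 of 18 higher and 0 of 33 lower members. In BNF it called 2 of 18 higher members, and 0 of 278 shared features. Over all features it called 0.755% in 500 ppm I3C and 0.0458% in BNF. The sets were not chosen alike, since the shared features also had to pass a ratio of E2 to the same pool. Their medians in 500 ppm I3C were 0.45 for higher and -0.44 for lower features, against 0.20 and -0.27 for the members. No test of the difference between these sets was made.

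The members lay in 33 of the 48 print blocks, with at most 4 in one block, and their duplicate spots differed by a median of 0.16, against 0.21 for all features. Markers of other cells were few and were given for the whole lists. The red blood cell list had 2 named features. LOC100135826 had means of -0.55 in 500 ppm I3C, -0.75 in 1500 ppm I3C, -0.73 in 500 ppm DIM, -0.51 in 1500 ppm DIM, -0.021 in BNF and -0.75 in E2, and LOC100136291 lay between -0.33 and 0.16 in all 6 diets. The list for matrix-making cells had 3. col1a2, a collagen gene, was between -0.47 and -1.06 in all 6 diets, whereas the sparc features had means of both signs, between -0.57 and 0.41. No immune marker was named. None of these features was a member, and their part in the members' values was not tested. Lists of chaperones (5 named features), lipid genes (2) and antioxidant genes (2) held 0 members, and limma called 0 features of any list in the 3 comparisons.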

How the data were processed

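Trout liver RNA was measured on 24 two-colour cDNA arrays, 12 treated samples each hybridised on 2 arrays with the dyes exchanged against 1 vehicle pool. Per the labels' protocols, RNA was labelled with a Genisphere Array 350 kit and scanned on a ScanArray instrument read with QuantArray. Each spot has 1 deposited value on each array. Judged from the values, 23 arrays are on a log scale, whose base was taken as 2. The authors left 1 BNF array, the Cy5 array of the first BNF sample, as a linear ratio, which was converted to log2. The sources used here do not give the background correction or normalization. No intensities or detection calls were used. The number of arrays limited the precision.

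Each array was centred on its median and the 8736 spots were averaged in pairs. The treated-dye and exchanged-dye arrays were combined as their difference divided by 2, the first E2 and first 500 ppm DIM samples being turned. limma 3.58.1 (R 4.3.3) was fitted to 12 sample values with 1 mean per diet, and p-values were adjusted over 4368 features by Benjamini-Hochberg. The pool counts as 1 control sample, so ratios tested against 0 leave out its own spread. Errors given as SE come from this fit.

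The members and gene lists were chosen with earlier results of these data known. Named here are members with a symbol, the 5 largest per direction, called members, those at each threshold, the 3 per direction largest in BNF, and the 3 per direction with the closest I3C and DIM values at 500 ppm; features 7011213, 6010309, 3040309, 11030709 and 11020307 were added after their values were seen. Of 33 annotated genes 27 were found in the RefSeq gene table of USDA_OmykA_1.1. In data simulated from the fit, log2 changes of 1 were recovered in 100% (I3C 500 ppm), 97% (BNF) and 70% (I3C minus BNF) of 100 changed features each. The simulation used independent normal noise and also held changes of 2 in 100 features per comparison. With more changed features than were called in the data, the adjusted p threshold was easier to pass. These rates therefore do not give the share of such changes called in the data. There, feature 7011213 at -1.12 in I3C minus BNF had limma adjusted p = 0.110.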

Additional observations from a re-analysis of the deposited data

How the results depend on the processing

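The number of members was 25 without centring, 6 with signs as deposited, 81 with an indole threshold of 0.4, 32 with an E2 threshold of 0.25, and 29 when chosen on the first sample of each diet; leaving out 1 sample gave 42 to 65. Members called in 500 ppm I3C numbered 28 without centring (818 of all features), 0 with arrays scaled alike (1 of all features) and 0 with signs as deposited (0 of all features). The number was 9 when only the groups compared were fitted (250 of all features, against 33 in the main fit). In BNF 5 were called without centring (41 of all features). In 500 ppm I3C minus BNF, 1 member and 7 of all features were called in the main fit. Without centring 2 members were called (9 of all features). Without the Cy5 array of the first BNF sample 2 were called (20 of all features), and with 24 arrays and a dye effect 3 (24 of all features). With arrays scaled alike and with signs as deposited 0 members and 0 of all features were called. When only the groups compared were fitted, 0 members were called (4 of all features). Over 24 settings the difference for feature 10031205 ran from -2.57 to -1.46. A recount without features 10031205 and 1020303, an alternative chosen after seeing the data, gave 0 called members in each comparison. These 2 were the only members called in the main fit, so that count was fixed in advance. Feature 10031205 lost its I3C minus BNF call with arrays scaled alike (limma adjusted p = 0.0721) and when only the groups compared were fitted (limma adjusted p = 0.0857). Causes were not tested, apart from fewer samples where these were left out.

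Replicate numbers did not pair the samples alike in all diets, and a replicate effect shared by some diets cannot be set aside. Over 15 pairs of diets, deviations of same-numbered samples correlated at -0.60 to 0.46, with 6 pairs over 0.1. The correlation was 0.40 between 500 ppm I3C and BNF. With the replicate block 2 members were called in I3C minus BNF (8 of all features), feature 1020303 being the second (limma adjusted p = 0.00984). The other 2 comparisons kept their counts within 1.5 times. With 2 samples per diet and no intensities, dim spots could not be set apart.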
